A study of Mus musculus with 6 samples.

Results

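Interferon-stimulated genes are the genes that cells switch on when interferon binds its receptor. A list of 45 of them was followed over 6 arrays of 3T3-L1 adipocytes, a mouse cell line that turns into fat cells under hormones. Each gene was read from the probe set annotated to that gene alone with the highest mean over the arrays. Of the 45 genes, 43 had such a probe set, out of 18194 named genes, and 40 reached the median of the whole table, 6.55 on the log2 scale, on at least 1 array, as did 12386 genes in all. These 40 are called detected below, and none of them lay under that median on any array. Oasl1, Mx1 and Ifitm1 were under it on all 6 arrays. Isg15 has a probe set that is annotated to a further gene as well, Ifi44 is not listed in the annotation used here, and neither was analysed.

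The cells were grown near to confluence and induced with insulin, isobutylmethylxanthine and dexamethasone, and every group then received insulin together with its treatment for 5 days. In the first experiment the groups were ethanol at 0.1%, tenofovir, an inhibitor of reverse transcriptase, at 1 µM, and ritonavir, an HIV protease inhibitor, at 20 µM. In the second, all groups received ritonavir at 20 µM, with DMSO at 0.1% or with conjugated linoleic acid (CLA) at 100 µM, as the c9,t11 or the t10,c12 isomer, which differ in where their conjugated double bonds lie. For each group RNA from 4 replicate experiments was pooled onto 1 array, so there is no spread between replicates, no test was possible, and "higher" and "lower" below compare single arrays. DMSO is recorded for its own group alone and ethanol for the group of the first experiment alone. A second group without ritonavir was not part of the second experiment, so that setting its arrays against ethanol also compares the experiments.

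Type I interferons act through a cell surface receptor and the Janus kinases, which activate STAT proteins. A complex of STAT proteins with IRF9 binds the interferon-stimulated response element (ISRE) in promoters, while interferon gamma acts through STAT dimers at the gamma activated site (GAS). The products stop viruses at several steps: they sense foreign nucleic acid, block translation, trap budding particles, attack vacuoles or present antigen. Fat cells and their precursors carry the receptors and respond to interferon themselves.

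Promoter sequences are shown for 8 members because they differ in what these response elements look like in genes that were higher on the arrays with ritonavir (Ifit1, Ifit3, Bst2, Rsad2, Trim30a, Trim30d, Igtp) and in 1 that was lower (Gbp2). Each run is the stretch that ends at the last base before the annotated start, 5′ to 3′ along the gene's strand, from RefSeq on build GRCm38.p6. Capitals mark the core of the ISRE, which is GAAA, any 2 bases and GAAA, or TTTC, any 2 bases and TTTC where it lies on the other strand, and the GAS, which is TTC, any 3 bases and GAA and reads the same on both strands.
Ifit1: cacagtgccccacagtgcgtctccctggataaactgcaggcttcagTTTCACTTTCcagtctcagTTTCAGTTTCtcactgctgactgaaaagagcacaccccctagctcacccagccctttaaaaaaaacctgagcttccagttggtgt
Ifit3: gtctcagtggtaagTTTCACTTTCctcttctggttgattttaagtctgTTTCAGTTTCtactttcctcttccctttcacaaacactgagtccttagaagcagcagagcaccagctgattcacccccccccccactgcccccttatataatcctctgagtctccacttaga
Bst2: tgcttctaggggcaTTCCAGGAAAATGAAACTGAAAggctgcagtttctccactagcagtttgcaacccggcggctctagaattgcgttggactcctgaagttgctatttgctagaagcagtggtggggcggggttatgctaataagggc
Rsad2: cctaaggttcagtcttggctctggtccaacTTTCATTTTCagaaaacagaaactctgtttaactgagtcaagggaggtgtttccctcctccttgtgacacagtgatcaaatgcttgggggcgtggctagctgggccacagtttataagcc
Trim30a: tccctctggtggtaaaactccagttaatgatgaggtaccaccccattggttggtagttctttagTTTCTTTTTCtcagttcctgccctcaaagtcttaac
Trim30d: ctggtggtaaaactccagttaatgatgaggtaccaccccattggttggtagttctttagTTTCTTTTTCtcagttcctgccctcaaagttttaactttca
Igtp: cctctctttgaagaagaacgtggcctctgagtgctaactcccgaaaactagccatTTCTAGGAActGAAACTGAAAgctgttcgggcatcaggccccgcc
Gbp2: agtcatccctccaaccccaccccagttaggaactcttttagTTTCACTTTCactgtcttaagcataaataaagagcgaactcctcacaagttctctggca
The stretches lie at chr19:34640739-34640888 on the plus strand for Ifit1, chr19:34583359-34583528 on the plus strand for Ifit3, chr8:71537473-71537622 on the minus strand for Bst2 and chr12:26456453-26456602 on the minus strand for Rsad2. Those of Trim30a and Trim30d, related neighbouring genes, lie at chr7:104465194-104465293 on the minus strand and chr7:104507850-104507949 on the minus strand. For Igtp the stretch is chr11:58199456-58199555 on the plus strand and for Gbp2 chr3:142620563-142620662 on the plus strand. Ifit1 and Ifit3 each hold 2 ISRE matches. In Bst2 a GAS match runs into 2 overlapping ISRE matches, and in Igtp a GAS match lies just before an ISRE match. The Trim30a and Trim30d stretches share a run of 89 identical bases with the ISRE match inside it.

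Of the 45 members 34 had a promoter window in the RefSeq table, taken from 250 bases before to 50 bases after the start. ISRE letters were present in a window of 17 of the 34 members, 50.0%, against 3.99% of the 27025 genes of the table and 3.44% of its 32851 windows. GAS letters were present in 10 of the 34, 29.4%, against 9.55% of the genes and 8.3% of the windows. The 17 were Ifit1, Ifit3, Isg15, Stat2, Bst2, Rsad2, Ifih1, Gbp2, Gbp3, Gbp7, Igtp, Irgm1, Trim30a, Trim30d, Eif2ak2, Ifitm2 and Ifitm3. A match says that the letters are there, not that a factor binds.

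The arrays had nearly equal distributions, with medians between 6.54 and 6.56, which the authors' normalization brings about. Over all detected genes the difference of the tenofovir and ethanol arrays had a robust SD of 0.11, which gives a scale for the values below but is not a replicate error. Fat cell markers were high on the ethanol array, with 14.79 for Adipoq and 14.89 for Fabp4. Of 13 markers of mature adipocytes, 10 were below ethanol by 2-fold or more on the ritonavir array and 5 on that of ritonavir with DMSO. In pooled RNA of a culture, fewer cells of a type and less RNA per cell cannot be told apart. Of 15 leukocyte and macrophage markers 7 were under the table median on all arrays, among them Ptprc, Adgre1 and Itgam, and so were 6 of 8 endothelial markers. The other 8 leukocyte and macrophage markers were detected, 3 above and 5 below ethanol with ritonavir and DMSO. Cd14 read 7.90 with ethanol, 8.81 with ritonavir and DMSO and 9.24 with ritonavir and t10,c12-CLA. On the same arrays Cd68 read 6.87, 8.43 and 10.10. The summed log2 level of the leukocyte list was 88.3 and 88.2 on the ethanol and tenofovir arrays, 89.5, 89.3 and 89.1 on those of ritonavir, of ritonavir with DMSO and with c9,t11-CLA, and 92.7 with t10,c12-CLA. That sum includes the 7 genes under the table median.

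Most of the detected interferon-stimulated genes were higher wherever ritonavir was present. For 26 of the 40, 65.0%, every 1 of the 4 arrays with ritonavir lay above both arrays without it, against 28.6% of all detected genes. Only Isg20, Gbp2 and Iigp1, 7.5% of the members, lay below both on all 4 arrays, against 22.6% of all detected genes. For some of the 26 the lowest array with ritonavir cleared the highest without it by less than 0.113. That is the robust SD of tenofovir against ethanol. These genes were Usp18 (0.003), Irf7 (0.03), Ifitm3 (0.05), Samd9l (0.05), Adar (0.06), Oas2 (0.10), Eif2ak2 (0.10), Stat2 (0.10) and Lgals3bp (0.11). Gbp2 lay below by 0.09. The array with t10,c12-CLA was the highest of the 6 for 20 members and the array with c9,t11-CLA for 10, against 18.4% and 10.3% of all detected genes. The ethanol array was the highest for 0 members and the lowest for 17, against 19.1% and 18.8% of all detected genes. The ritonavir array of the first experiment was the highest for 5 members and the lowest for 9, against 25% and 27.5% of all detected genes. The arrays with ritonavir also differ in added agent and experiment, and 4 arrays against 2 could not give a two-sided exact permutation p under 0.133, so no test was made. The members were chosen with earlier results of these data known, so their shares are not independent of the data. Without the ritonavir array of the first experiment 31 members, 77.5%, were higher on all 3 remaining arrays with the drug, against 33.3% of all detected genes.

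**Figure D1:**
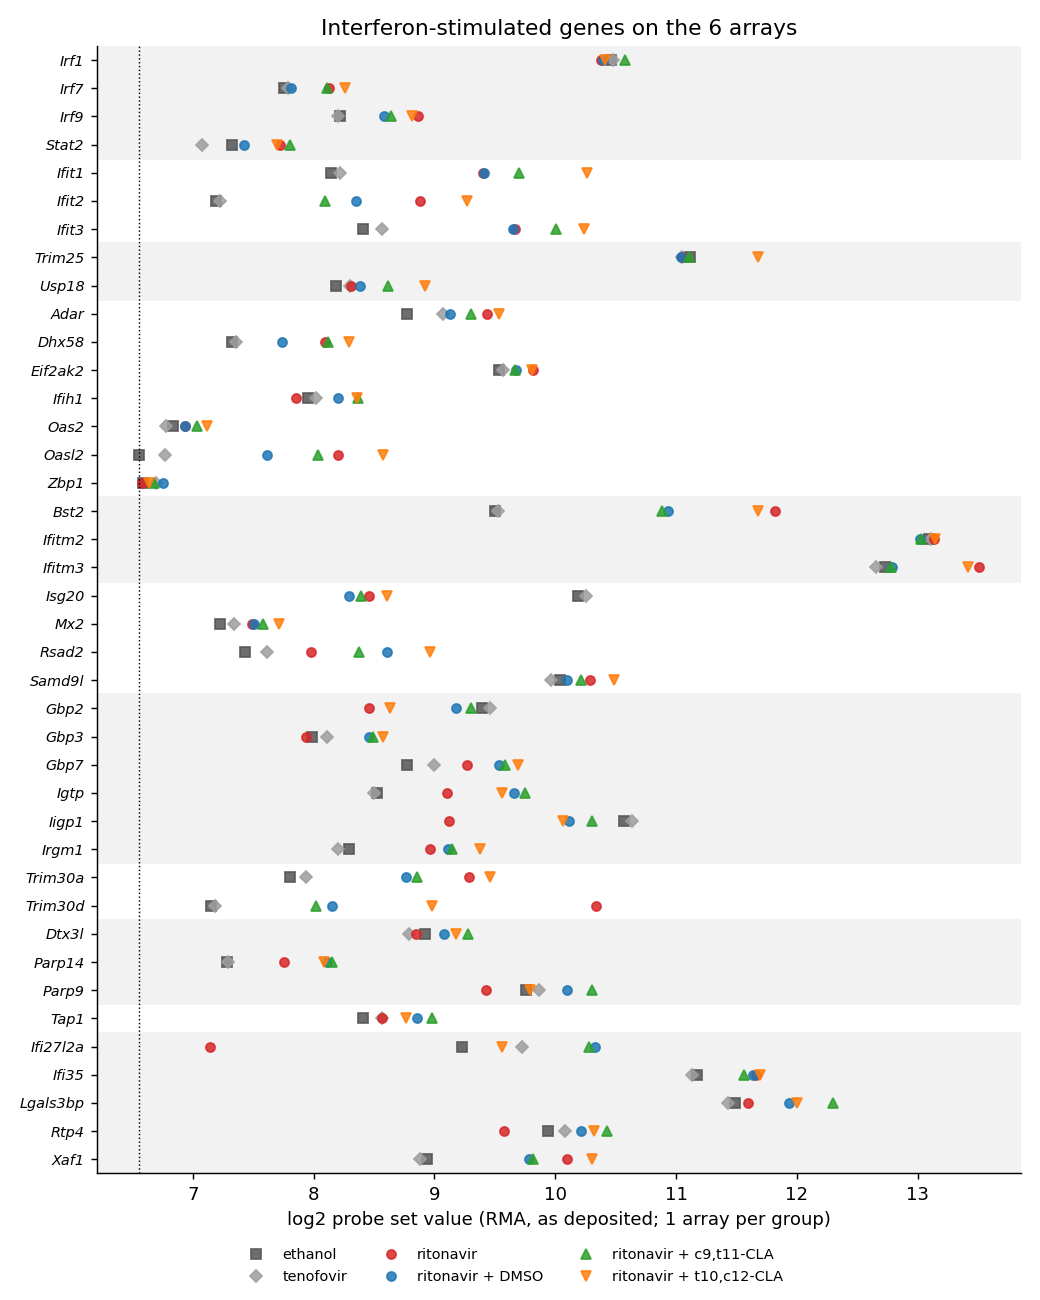
Log2 probe set value (horizontal axis, RMA values as deposited) of the 40 detected interferon-stimulated genes, with 1 symbol per array and genes grouped by role in shaded bands; the dotted line is the table median of 6.55. For 26 genes all symbols with ritonavir lie to the right of ethanol and tenofovir, and Isg20, Gbp2 and Iigp1 show the opposite order.

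Values of single genes are given in the order ethanol, tenofovir, ritonavir, ritonavir with DMSO, ritonavir with c9,t11-CLA and ritonavir with t10,c12-CLA, as log2 levels. The factors that drive the programme were measured first. Irf9, the DNA-binding part of the ISRE complex, read 8.22, 8.20, 8.87, 8.58, 8.64 and 8.82. Stat2, its partner, read 7.32, 7.08, 7.73, 7.42, 7.80 and 7.70. Irf7, which amplifies the production of type I interferon, read 7.76, 7.79, 8.12, 7.81, 8.11 and 8.26. All 3 were higher on each array with ritonavir than on the others, by a margin as small as 0.03 for Irf7. Irf1, which relays interferon gamma and inflammatory signals, lay between 10.38 and 10.57 on the 6 arrays, and the groups overlapped. None of the 4 factors was 2-fold apart in any comparison.

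The IFIT genes encode proteins that bind foreign RNA and block its translation. Ifit1 read 8.14, 8.22, 9.40, 9.41, 9.70 and 10.26. Ifit2 read 7.19, 7.22, 8.88, 8.35, 8.09 and 9.27, and Ifit3 read 8.41, 8.56, 9.67, 9.65, 10.00 and 10.24. All 3 were at least 2-fold above ethanol on both the array of ritonavir and that of ritonavir with DMSO. The log2 differences from ethanol were 1.25 and 1.27 for Ifit1, 1.69 and 1.16 for Ifit2 and 1.26 and 1.24 for Ifit3. Each of the 3 was highest with t10,c12-CLA, 0.85, 0.92 and 0.59 above ritonavir with DMSO.

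Among membrane proteins that stop virus entry or release, Bst2, the gene of tetherin, which holds budding virus at the cell surface, read 9.50, 9.52, 11.82, 10.93, 10.88 and 11.68. Its 4 values with ritonavir lay well above the other 2, and the difference from ethanol was 2.32 for ritonavir, or 4.98-fold, and 1.43 for ritonavir with DMSO. Ifitm3, which blocks the fusion of incoming virus, read 12.73, 12.65, 13.50, 12.78, 12.78 and 13.41, so that it stood apart only on the arrays of ritonavir and of t10,c12-CLA. Ifitm2, a close relative of Ifitm3, lay between 13.02 and 13.14 throughout. Values this near the top of the scale can be compressed, and probe sets of such related genes may share signal.

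The TRIM30 genes encode ubiquitin ligases. Trim30d read 7.15, 7.19, 10.34, 8.15, 8.02 and 8.98, which is 9.11-fold above ethanol on the ritonavir array and just under 2-fold above it on that of ritonavir with DMSO. Trim30a, known to restrain Toll-like receptor signalling, read 7.81, 7.94, 9.29, 8.76, 8.86 and 9.46, with differences from ethanol of 1.48 and 0.95. Both were higher on every array with ritonavir. A second probe set of Trim30d gave 2.63 for ritonavir against ethanol and 0.49 for ritonavir with DMSO, and a second of Trim30a gave 1.40 and 0.75. That of Trim30d lay under the table median on both arrays without ritonavir, at 6.13 and 6.37, and passed it only through arrays with the drug, so it does not count as support. The genes are close copies, and whether each probe set reads its own gene alone was not tested.

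Sensors of double-stranded RNA and of DNA had 7 detected members, of which only Oasl2 was 2-fold apart. Oasl2, an OAS-like protein, read 6.56, 6.77, 8.20, 7.61, 8.04 and 8.58, with ethanol at the edge of the table median, so its fold is uncertain. Dhx58, which encodes the RNA helicase LGP2, read 7.32, 7.36, 8.09, 7.74, 8.12 and 8.30. Adar, an editor of double-stranded RNA, read 8.77, 9.07, 9.43, 9.13, 9.30 and 9.54. These 3 were higher on all arrays with ritonavir, although Adar with DMSO was only 0.06 above tenofovir. A second detected probe set of Adar overlapped, with 6.96 and 7.02 without ritonavir and 6.95 with ritonavir and DMSO. Eif2ak2, the gene of the kinase PKR, lay between 9.53 and 9.82 and Oas2 between 6.78 and 7.12, and for both the arrays with the drug lay above those without it. Ifih1, the RNA sensor MDA5, overlapped, being lowest on the ritonavir array at 7.86 and 8.36 with either CLA isomer, and Zbp1, a sensor of Z-form nucleic acid, stayed between 6.58 and 6.76.

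Other antiviral effectors went apart. Isg20, an exonuclease that degrades viral RNA, read 10.19, 10.26, 8.46, 8.29, 8.39 and 8.61. It was the only member at least 2-fold lower than ethanol on both ritonavir arrays, with differences of -1.74 and -1.90, and its 4 values with the drug lay close together. Its probe set is the only one annotated to it alone. Rsad2, the gene of viperin, read 7.43, 7.62, 7.98, 8.61, 8.38 and 8.96. Here the difference from ethanol was 0.55 on the ritonavir array and 1.17 on that of ritonavir with DMSO. Both other probe sets of Rsad2 lay under the table median with ethanol, tenofovir and ritonavir, so they do not serve as a second reading. Mx2 lay between 7.22 and 7.72 and Samd9l between 9.97 and 10.49, both higher on all arrays with ritonavir.

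The GTPases that attack the vacuoles of intracellular pathogens, which are best known as targets of interferon gamma, did not share a direction. Igtp read 8.53, 8.50, 9.10, 9.66, 9.75 and 9.56, Irgm1 read 8.30, 8.21, 8.96, 9.11, 9.15 and 9.37, and Gbp7 ran from 8.77 with ethanol to 9.69 with t10,c12-CLA, its 4 arrays with ritonavir at 9.27 or more. All 3 were higher on every array with ritonavir, and Igtp was 2-fold above ethanol on that of ritonavir with DMSO. Iigp1 went the other way with 10.57, 10.63, 9.12, 10.11, 10.30 and 10.07, and Gbp2 with 9.39, 9.46, 8.46, 9.18, 9.30 and 8.64. Second probe sets of Iigp1 and Gbp2 differed from ethanol by -1.43 and -0.93 on the ritonavir array, next to -1.46 and -0.94 for the first. Gbp3 overlapped, with 7.94 on the ritonavir array and 7.98 on that of ethanol. Against the ritonavir array, all 6 of these genes were higher with ritonavir and DMSO, by 0.15 to 1.00, where 50.9% of all detected genes were higher.

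The genes of protein modification that follow were less than 2-fold apart in every comparison. Their largest difference was 0.83, for Parp14 with ritonavir and DMSO against ethanol. Usp18, which strips ISG15 from proteins and damps the receptor, read 8.19, 8.31, 8.31, 8.38, 8.61 and 8.93, with the first 4 arrays within 0.20 of each other. Trim25, a ubiquitin ligase that activates an RNA sensor, lay between 11.04 and 11.11 on 5 arrays and at 11.68 with t10,c12-CLA. That gap was also seen with 2 other probe sets of Trim25, which were 0.47 and 0.32 above ritonavir with DMSO. Parp14 read 7.28, 7.30, 7.75, 8.11, 8.15 and 8.09 and did not overlap. Parp9 and Dtx3l, whose products work as a pair in DNA repair and interferon signalling, overlapped, between 9.43 and 10.30 and between 8.79 and 9.28.

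Ifi27l2a, which encodes a small membrane protein, had the most divergent pattern. It read 9.23, 9.73, 7.14, 10.33, 10.28 and 9.56. The ritonavir array was the lowest of all, 4.26-fold below ethanol, while the array of ritonavir with DMSO was the highest, 2.14-fold above ethanol. Ifi27l2a has 1 probe set of its own, so this was not seen a second time. Xaf1, an antagonist of an inhibitor of apoptosis, read 8.94, 8.88, 10.10, 9.78, 9.81 and 10.30 and was 2.24-fold above ethanol on the ritonavir array. Ifi35 lay between 11.14 and 11.69 and the secreted glycoprotein gene Lgals3bp between 11.43 and 12.30, both without overlap, whereas Rtp4, between 9.58 and 10.43, and the antigen peptide transporter Tap1, between 8.41 and 8.98, overlapped.

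Counted against ethanol, the ritonavir array had 8 of 40 members, 20%, at least 2-fold higher, against 4.56% of all detected genes. They were Trim30d, Bst2, Ifit2, Oasl2, Trim30a, Ifit3, Ifit1 and Xaf1. The 3 members at least 2-fold lower, 7.5%, against 6.39% of all genes, were Ifi27l2a, Isg20 and Iigp1, a share near that of all genes. At 1.5-fold 13 were higher and 4 lower, where 12.4% of all genes were higher and 12.4% lower. The median of the members was 0.33, and that of all detected genes 0.00. In this comparison 28 members, 70.0%, lay above 0, against 50.2% of all genes. Of 15 further detected probe sets for 12 of the members 14 had the sign of the first in this comparison, the exception being 1 of Trim25. Among the 15 are 1 set of Trim30d and 1 of Rsad2 that passed the table median only through arrays with ritonavir. Their signs do not count as support. The number of the 15 with the same sign was 13 for ritonavir with DMSO against ethanol and 8 for ritonavir with DMSO against ritonavir. It was 11 for tenofovir, 11 and 10 for c9,t11-CLA and t10,c12-CLA set against DMSO, and 12 between the isomers.

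The array of ritonavir with DMSO also had 8 of 40 members, 20%, at least 2-fold above ethanol, where 1.52% of all detected genes were. Of these, Ifit1, Ifit2, Ifit3, Bst2 and Oasl2 were also 2-fold higher on the ritonavir array, and Rsad2, Igtp and Ifi27l2a were not. Only Isg20, 2.5% of the members against 2.99% of all genes, was 2-fold lower. At 1.5-fold 14 members were higher, against 6.45% of all genes, and 1 was lower, against 7.69%. The median of the members was 0.36 against 0.02 for all detected genes. Both comparisons subtract the same ethanol array, so they are not independent. The members' medians were alike on the 2 arrays, 0.33 and 0.36, while the mature adipocyte markers had medians of -3.50 and -0.69 and the preadipocyte and fibroblast markers 0.89 and -0.43. Of the leukocyte and macrophage list only Cd68 was 2-fold apart, at 1.83 and 1.56. The part of these markers in the members' differences was not tested.

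**Figure D2:**
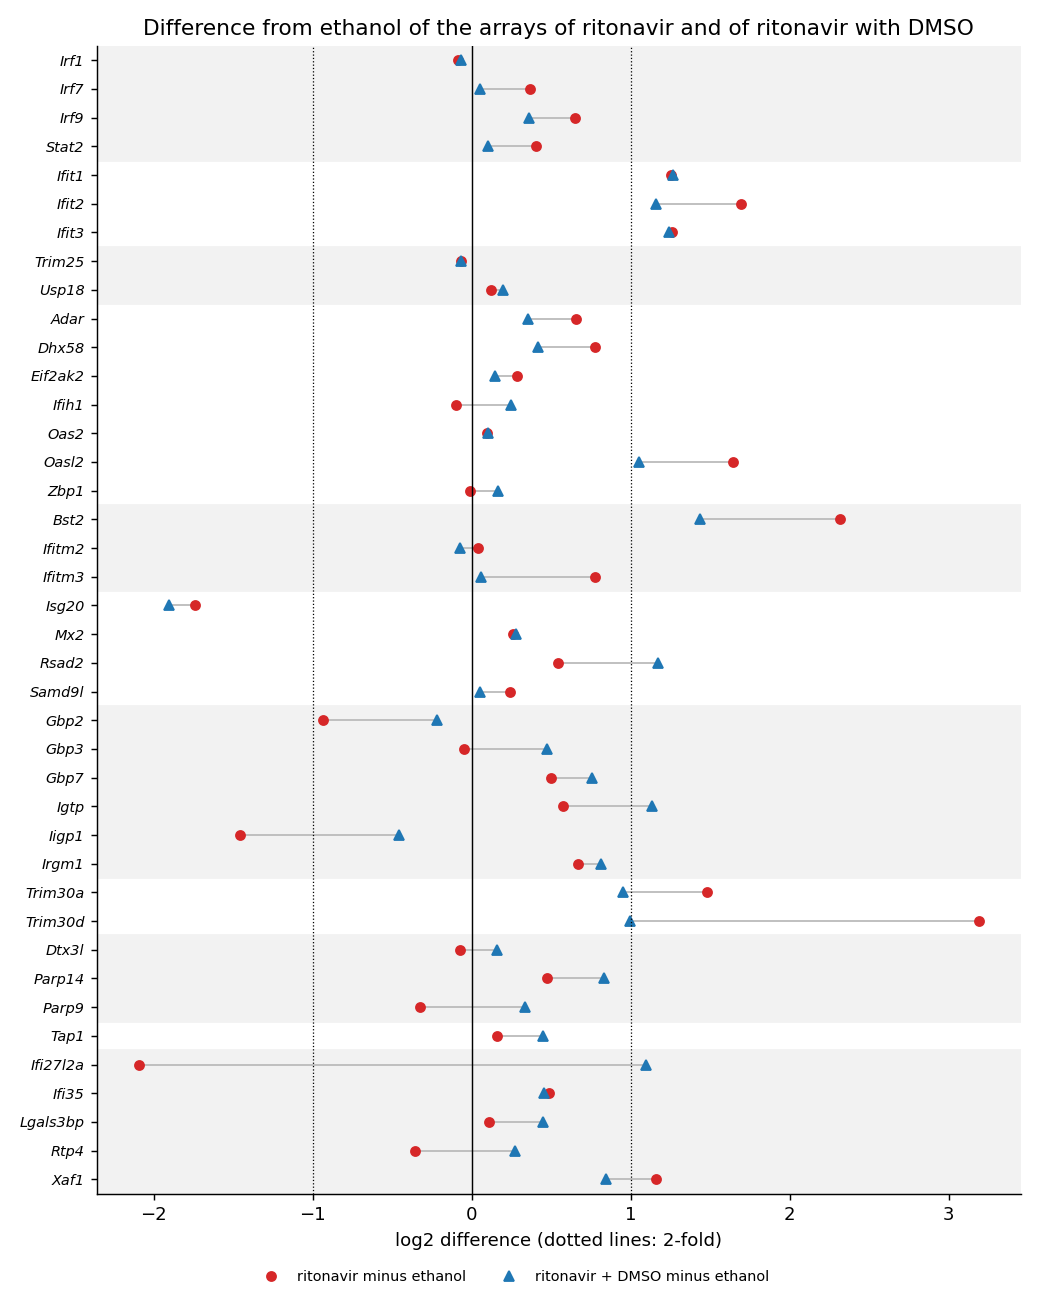
Log2 difference from the ethanol array (horizontal axis) of the 40 detected genes on the arrays of ritonavir (circles) and of ritonavir with DMSO (triangles), joined by a line per gene; both share the ethanol array, and dotted lines mark 2-fold. Ifit1 and Ifit3 sit at nearly the same place on both, Trim30d at 3.19 and 1.00, and Ifi27l2a at -2.09 and 1.10.

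Set directly against each other, the array of ritonavir with DMSO had 1 member at least 2-fold above the ritonavir array, Ifi27l2a at 3.19, and 1 at least 2-fold below it, Trim30d at -2.19. That is 2.5% in each direction, near the 2.83% and 2.07% of all detected genes. At 1.5-fold 6 members were higher and 4 lower, against 8.43% and 6.18% of all genes. The median was 0.01. The genes with the largest values after Ifi27l2a were Iigp1 (1.00), Gbp2 (0.72) and Parp9 (0.66), and after Trim30d came Bst2 (-0.88) and Ifitm3 (-0.72). DMSO was used in the second experiment alone, so an effect of it and one of the experiment cannot be told apart.

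With tenofovir 0 of 40 members were 2-fold or 1.5-fold from ethanol, where 0% of all detected genes were 2-fold apart and, at 1.5-fold, 0.0565% were higher and 0.0404% lower. The differences ran from -0.24 for Stat2 to 0.49 for Ifi27l2a, with a median of 0.04 against -0.01 for all genes. Above 0 lay 28 members, 70.0%, against 46.3% of all detected genes, so members leaned above the ethanol array without ritonavir as well. Ifit1, Ifit2 and Ifit3 differed by 0.08, 0.03 and 0.16, and Bst2 by 0.02. With 1 array a group, a difference of this size cannot be set against an error.

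The CLA isomers were given at the same dose and time to cells with ritonavir. Against DMSO the t10,c12 isomer had 0 members 2-fold apart, where 0.783% of all detected genes were higher and 1.05% lower, but 9 of 40, 22.5%, were at least 1.5-fold higher, against 3.11% of all genes. They were Oasl2 (0.97), Ifit2 (0.92), Ifit1 (0.85), Trim30d (0.83), Bst2 (0.74), Trim30a (0.70), Trim25 (0.64), Ifitm3 (0.63) and Ifit3 (0.59). Ifi27l2a was the 1 member at least 1.5-fold lower, at -0.77, against 3.96% of all genes. The median was 0.23, against 0.02 for all detected genes, and 32 members, 80.0%, lay above 0, against 52.8% of all genes. In the same comparison 7 of the 13 adipocyte markers were lower by 2-fold or more, with a median of -1.07, the preadipocyte and fibroblast markers had a median of 0.57 with S100a4 and Acta2 at least 2-fold higher, and Cd68 was at 1.67. The part of these in the members' differences was not tested. The c9,t11 isomer had 0 members 2-fold apart, where 0% of all genes were higher and 0.00807% lower, and 0 members 1.5-fold apart, where 0.0969% were higher and 0.0727% lower. Its differences from DMSO lay between -0.26 for Ifit2 and 0.43 for Oasl2, with a median of 0.09 against 0.01 for all genes. In this comparison 31 members, 77.5%, lay above 0, against 52.3% of all genes.

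**Figure D3:**
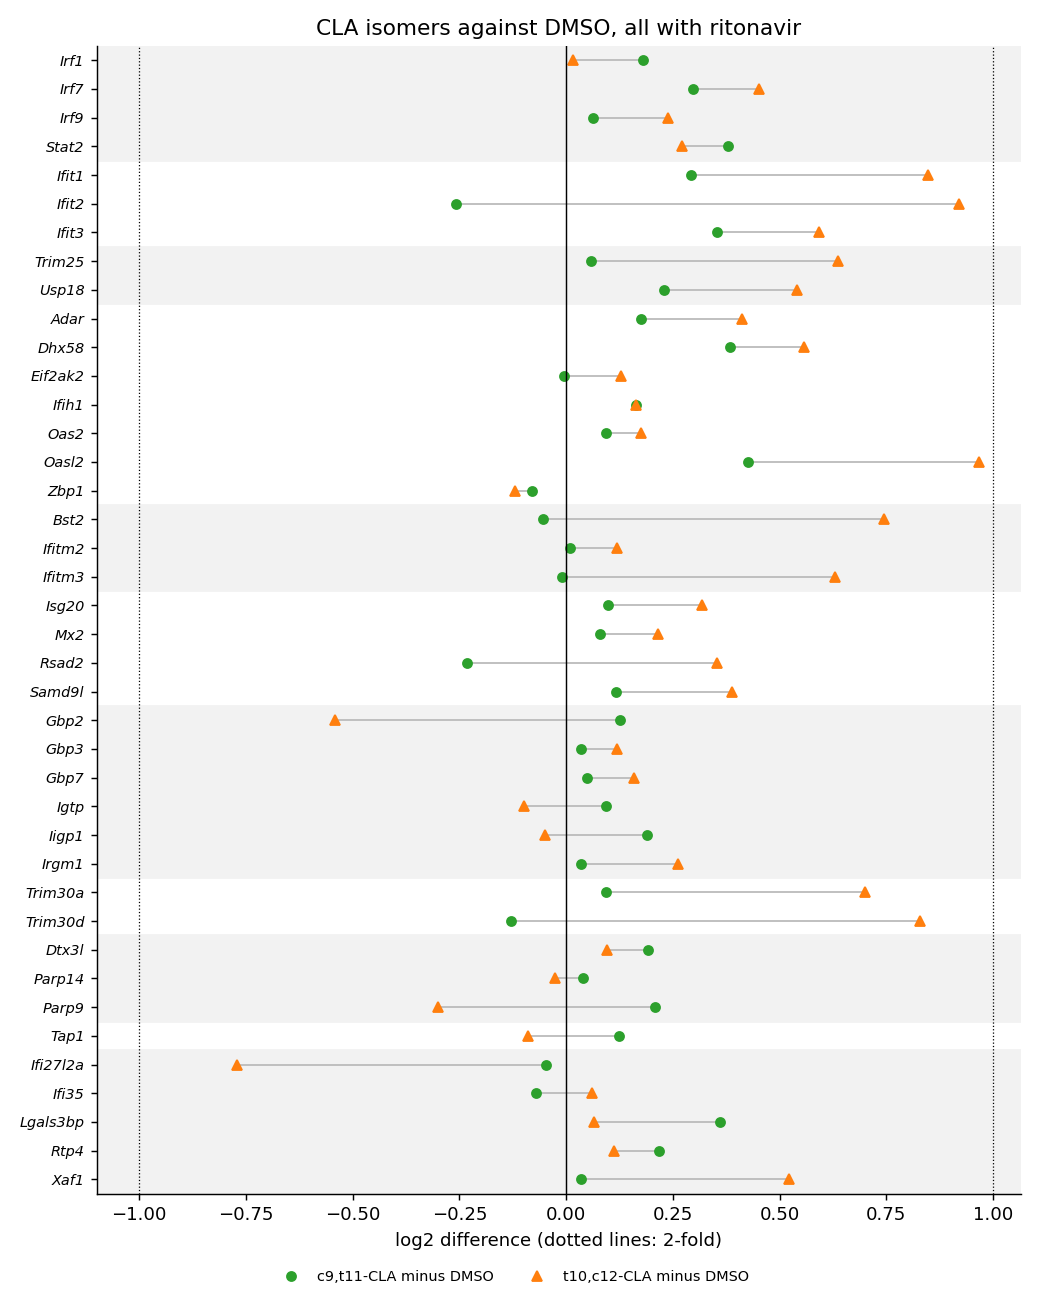
Log2 difference from ritonavir with DMSO (horizontal axis) of the 40 detected genes with c9,t11-CLA (circles) and t10,c12-CLA (triangles), all with ritonavir; both share the DMSO array, and dotted lines mark 2-fold. All points lie inside the 2-fold lines, and 9 genes with t10,c12-CLA reach 0.59 or more while no gene with c9,t11-CLA passes 0.43.

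Compared with each other, the isomers were 2-fold apart for 1 member, Ifit2, which was 1.18 higher with t10,c12-CLA, or 2.26-fold. That is 2.5% of the members, against 0.953% of all detected genes, and 0 members were 2-fold lower, against 1.53%. A further 5 were at least 1.5-fold higher with t10,c12-CLA: Trim30d (0.96), Bst2 (0.80), Ifitm3 (0.64), Trim30a (0.61) and Rsad2 (0.59), which makes 6 against 3.13% of all genes. At 1.5-fold 2 were lower, against 4.96% of all genes. Lower with that isomer were Ifi27l2a (-0.73), Gbp2 (-0.67) and Parp9 (-0.51). In all, 26 members, 65.0%, lay above 0 and 14 below it, where 51.8% of all detected genes lay above 0. The median was 0.14 against 0.01 for all detected genes. No interval of these differences can be given from 1 array each. Beside them, 8 of the 13 adipocyte markers were lower by 2-fold or more with t10,c12-CLA than with the other isomer, and of the leukocyte and macrophage list again only Cd68, a lysosomal protein of macrophages, was at least 2-fold higher, at 1.99. The part of either in the members' differences was not tested.

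**Figure D4:**
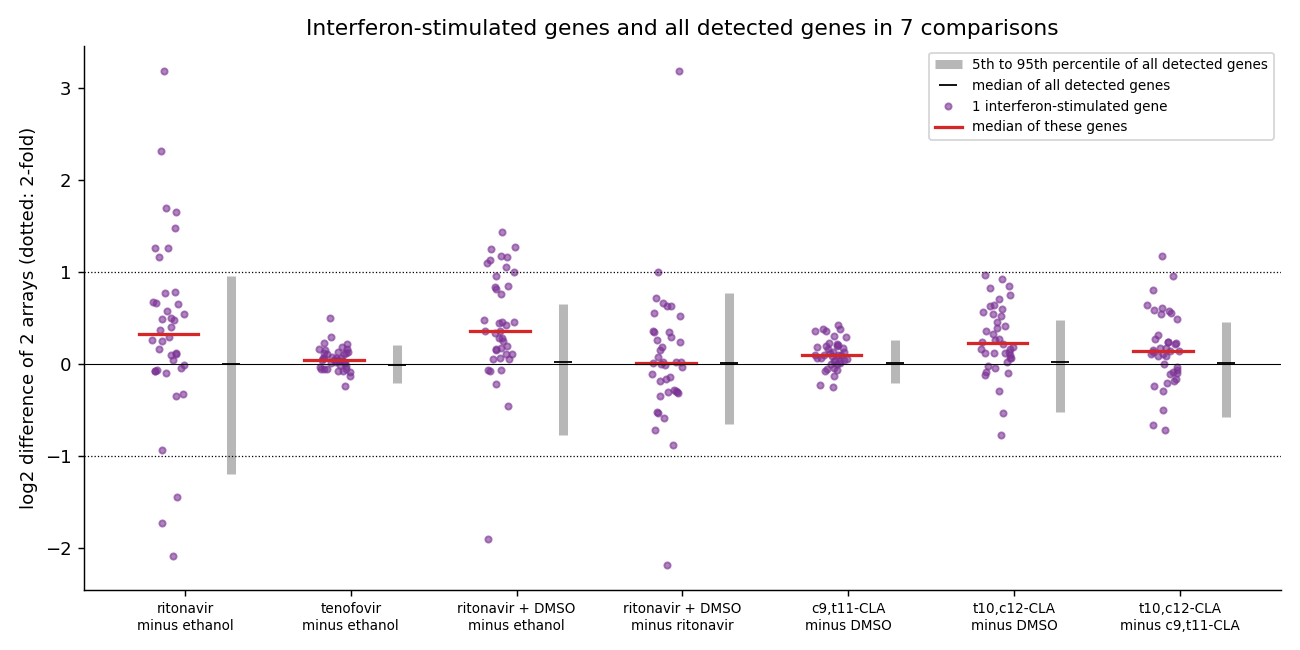
Log2 difference of 2 arrays (vertical axis) in 7 comparisons, where points are the 40 detected interferon-stimulated genes, red lines their medians, grey bars the central range of all 12386 detected genes from the 5th to the 95th percentile and black ticks the median of those genes. The medians of the members were 0.33 and 0.36 for the ritonavir arrays against ethanol, 0.23 for t10,c12-CLA set against DMSO, and 0.01 to 0.14 in the other comparisons.

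Genes upstream in the pathway showed no common shift. Of 32 with a probe set 29 were detected, and against ethanol their medians were -0.03 for ritonavir and 0.03 for ritonavir with DMSO. In each of these comparisons 0 were 2-fold higher and 1 was lower, Ifngr1, a receptor chain for interferon gamma, at -1.38 for ritonavir, and Socs3, a feedback inhibitor of cytokine signalling, at -1.15 for ritonavir with DMSO. The chains of the type I receptor were nearly equal, with Ifnar1 at -0.03 and 0.27 and Ifnar2 at 0.03 and 0.07. The kinase Jak1 differed by 0.78 and 0.27, and Tyk2 by 0.22 and 0.04. Irf3, which starts interferon production, differed by 0.20 and 0.11, and Irf2, a repressor, by -0.50 and -0.55. The RNA sensor Ddx58 was at 0.38 and 0.21, Tlr3 at 0.21 and 0.76, and the feedback inhibitor Socs1 at 0.28 and 0.01. Interferon genes themselves, named after their values were seen, were low. Ifnb1 read 6.64 with ethanol and 6.66 with tenofovir, and between 6.21 and 6.33 on the 4 arrays with ritonavir, which is under the table median. Ifna2 and Ifna4 were under that median on all arrays.

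A wider list of further interferon-stimulated genes had medians near 0 against ethanol and members far from it in both directions. Of 43 with a probe set 33 were detected, and 7 of these, 21.2%, were at least 2-fold above ethanol on the ritonavir array and 3, 9.09%, below, against 4.56% and 6.39% of all detected genes, with a median of 0.02. The chemokine gene Ccl7 (1.99), the GTPase gene Gbp6 (1.73) and the lysosomal thiol reductase gene Ifi30 (1.28) were highest, and the chemokine gene Cxcl10 (-1.39), Nampt (-1.05) and Samhd1 (-1.03), which limits nucleotides for viruses, were lowest. With ritonavir and DMSO the median was 0.03, and 3 of 33, 9.09%, were 2-fold above ethanol, against 1.52% of all genes: Gbp6 (1.78), Irgm2 (1.38) and the chemokine gene Ccl5 (1.08), which was at 1.17 with ritonavir, and Cxcl10 was at -0.01. Ccl7 was the only gene of this list 2-fold apart between t10,c12-CLA and DMSO, at 1.98.

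Members with and without ISRE letters in their promoter window were set side by side, and no test was made. On the ritonavir array the 16 detected members with ISRE letters had a median difference from ethanol of 0.56, with 5 at least 2-fold higher and 0 lower, and the 14 with a window but without the letters 0.30, with 3 higher and 1 lower. With ritonavir and DMSO the medians were 0.79 and 0.36. Among all other detected genes, 331 had ISRE letters, and their medians were 0.04 and 0.06 in these comparisons, against 0.00 and 0.02 for the 9648 without. On the ritonavir array 20 of the 331 were at least 2-fold higher and 24 lower, and of the 9648, 406 were higher and 592 lower. With the CLA isomers the members with the letters had the lower medians. These were 0.04 against 0.12 for c9,t11-CLA set against DMSO, 0.27 against 0.35 for t10,c12-CLA, and 0.18 against 0.20 between the isomers. Gbp2 holds ISRE letters and was at -0.94 with ritonavir, and Oasl2 and Xaf1 were higher without holding them in these windows.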

How the data were processed

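The authors' deposited table holds log2 values of 45101 probe sets on 6 arrays. The submitters' processing notes name RMA and Affymetrix Expression Console. RMA subtracts background, equalises the arrays and summarises probes, so a shift shared by most genes would be removed. Versions, settings and detection calls were not given in the sources used here. Probe sets were named from the platform annotation, with symbols updated by gene identifier for 34754 of the 34958 with 1 gene. A further 932 had several genes and 9211 were not listed. Differences are of log2 values, and 2-fold is a log2 difference of 1. No test was made, since each group has 1 array. The members, lists and roles were chosen with earlier results of these data known. All members may be named. Of other lists, up to 3 genes per direction and comparison at least 2-fold apart and a fixed set of pathway genes were named. Cell type markers were named outside that rule. The counting step was tested on simulated data. Python 3.11.15, numpy 2.4.6, pandas 2.3.3, statsmodels 0.14.6 and matplotlib 3.10.9 were used.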

Additional observations from a re-analysis of the deposited data

Results flagged for a closer look

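Ifi27l2a was 2-fold or more from ethanol in opposite directions on the 2 arrays of ritonavir, at -2.09 for ritonavir of the first experiment and 1.10 for ritonavir with DMSO of the second. These differ by 3.19 on the log2 scale. The difference was not tested, since each group has 1 array, and both comparisons use the same ethanol array. The arrays with c9,t11-CLA and t10,c12-CLA, from the second experiment, read 10.28 and 9.56, nearer to the array of ritonavir with DMSO at 10.33 than to that of ritonavir at 7.14. The value with t10,c12-CLA also lay between those of the arrays without ritonavir, 9.23 with ethanol and 9.73 with tenofovir.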

How the results depend on the processing

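No paired analysis was possible because each group has 1 array. The alternatives were other rules for probe sets and low values, other scalings and a 1.5-fold threshold, and leaving out each array in turn was chosen after seeing the data. A median counted as moved when it shifted by 0.113 or more, and a count when it changed over 1.5 times. Of 185 values for the counts and medians 172 did neither, 12 moved and 1 changed sign. The sign changed for the median of ritonavir with DMSO against ritonavir, to -0.0033 with the trend on expression removed by lowess. In that comparison 2 members in place of 1 were 2-fold higher with the mean of all probe sets, with only probe sets without a suffix or with quantile normalization again. Without suffixed probe sets 0 members were 2-fold lower with ritonavir and DMSO than with ethanol, because Isg20 then has none. At 1.5-fold the members higher numbered 13 for ritonavir and 14 for ritonavir with DMSO against ethanol, 6 for ritonavir with DMSO against ritonavir (4 lower), 9 for t10,c12-CLA against DMSO (1 lower) and 6 between the isomers (2 lower). Leaving out 1 array, 26 to 31 members were higher and 3 to 4 lower on all arrays with ritonavir, against 30.7% to 34.5% and 24.4% to 28.8% of all detected genes. With quantile normalization again 24 were higher. Low signal limits Zbp1, Oas2 and Oasl2, which lie near the table median.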

Other observations

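Class I antigen presentation genes, which interferon gamma is known to induce, followed another order. All 15 with a probe set were detected. Against ethanol their median was -0.16 for ritonavir and 0.32 for ritonavir with DMSO. With DMSO 14 of 15 were higher than with ritonavir alone, against 50.9% of all detected genes. The immunoproteasome subunit gene Psmb9 read 8.24 with ethanol, 8.37 with tenofovir, 8.36 with ritonavir, 9.24 with DMSO, 9.22 with c9,t11-CLA and 8.54 with t10,c12-CLA, so it was high on 2 of the 3 arrays of the second experiment. Its partner Psmb8 differed from DMSO by 0.02 with c9,t11-CLA and by -0.65 with t10,c12-CLA. The class I heavy chain genes H2-K1 and H2-D1 differed from ethanol by -0.48 and 0.26 with ritonavir and by 0.32 and 0.65 with ritonavir and DMSO, and the light chain gene B2m by 0.16 and 0.33. Between the isomers 14 of 15 were lower with t10,c12-CLA, where 51.8% of all detected genes were higher. Their median was -0.18, whereas the interferon-stimulated genes described above had a median of 0.14 in the same comparison. Values of H2 genes lie near the top of the scale, and related genes may share probes.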
